A study of Rattus norvegicus with 48 samples.

Results

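Mitochondrial ribosomal proteins were followed in rat liver and in preneoplastic liver nodules, early lesions of altered hepatocytes, before and after treatment with triiodothyronine (T3), the active thyroid hormone. Their genes were taken as all those whose symbol in the array's probe annotation is Mrpl or Mrps followed by a number. There were 59 such genes among 13337 named genes, 36 with Mrpl symbols (large subunit) and 23 with Mrps symbols (small subunit), and each had a single probe. Of these, 57 were bright enough to test, 35 of the large and 22 of the small subunit. Mrpl30 was above background on 3 of 48 arrays and Mrps31 on 0, and both were left out.

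The mitochondrial ribosome translates the few messages encoded by mitochondrial DNA, all of them for subunits of the respiratory chain and of the ATP synthase. Its RNAs come from the mitochondrial genome, whereas its proteins are made in the cytosol from nuclear genes and imported. Some of these proteins have bacterial counterparts and others occur only in mitochondrial ribosomes. Thyroid hormone is a known stimulus of mitochondrial respiration and biogenesis in liver.

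RNA was measured on 48 Illumina bead arrays of liver tissue from male Fischer rats, in 5 groups defined by the sample titles. Control liver had 8 arrays. Preneoplastic nodules negative for keratin 19 (KRT-19), a keratin made by bile ducts and liver progenitors, had 10, untreated KRT-19-positive nodules had 10, and KRT-19-positive nodules after 2 d and after 4 d of T3 had 10 each. The labels give neither the age of the rats, the way the nodules were induced nor the dose of T3, and whether each sample is a different animal is not stated. The p-values therefore describe variation among the samples as labelled, part of which may be technical. Levels are background-corrected, quantile-normalised log2 intensities, and a level of 1 probe cannot be set against that of another. Differences are given in log2 with the standard error of the fit over all 48 arrays (SE), and a gene was called higher or lower at a limma adjusted p under 0.05 over 11558 features.

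Between 8380 and 10695 of 22523 probes were above background per array. The median per group was 9218 in control, 9298 in KRT-19-negative, 10493 in untreated KRT-19-positive nodules, 9540 after 2 d and 9789 after 4 d of T3. The hepatocyte markers (Alb and 5 others) had a summed linear intensity with a group median between 98180 and 109400, so hepatocyte RNA was present throughout. Some arrays stood apart. KRT-19-negative array 4 and KRT-19-positive array 7 had the lowest mean of the mitochondrial ribosomal protein genes in their groups. Over all features, KRT-19-negative array 3 was closest to control, array 9 of the same group was closest to KRT-19-positive nodules, and array 2 at 2 d and arrays 1 and 3 at 4 d of T3 were least like their own groups. The counts of each comparison are also given as a range over 4 fits that left out, in turn, KRT-19-negative array 4 with KRT-19-positive array 7, KRT-19-negative arrays 3 and 9, array 2 at 2 d, and arrays 1 and 3 at 4 d.

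After 4 d of T3, most mitochondrial ribosomal protein genes were higher than in untreated KRT-19-positive nodules. Of the 57 genes, 32 were called higher, beside 27.1% of all features, and 8 were called lower, beside 26.6% of all features. The 32 include Mrps10, whose probe passed the detection filter only through the 4 d arrays. The large subunit had 22 of 35 genes higher and 5 lower with a median difference of 0.26, and the small subunit had 10 of 22 higher and 3 lower with a median of 0.16. The median over all features was 0.00. All features include dim probes, whereas most of the 57 genes were detected on every array. In a fit of the 6034 features detected on all arrays, 29 of 52 genes were higher, beside 35.7% of these features, and 7 lower, beside 32.6%. With the arrays that stood apart left out, 31 to 34 genes were higher and 6 to 10 lower.

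**Figure D1:**
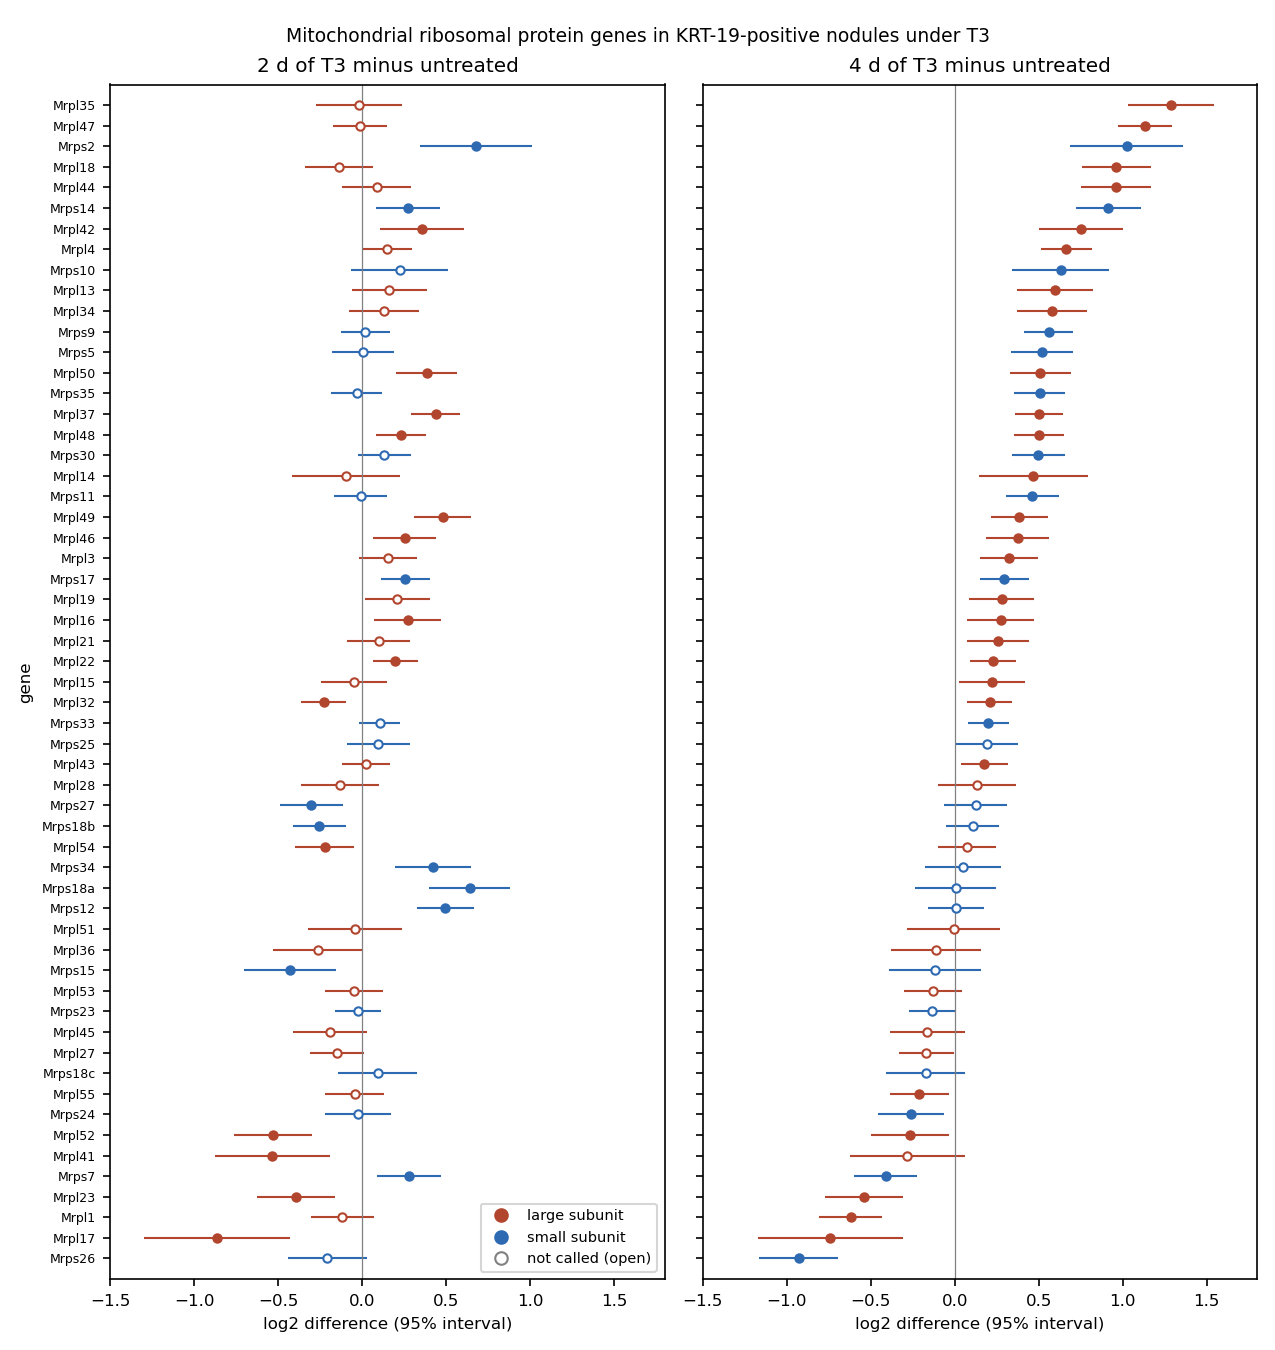
Log2 difference with its 95% interval for each of the 57 genes, after 2 d (left) and 4 d (right) of T3 against untreated KRT-19-positive nodules, ordered by the difference at 4 d. Filled points were called at a limma adjusted p under 0.05, and at 4 d they are 32 to the right of 0 and 8 to the left.

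The largest rise was that of Mrpl35, a large-subunit protein with a bacterial counterpart. Its lowest, median and highest log2 levels were 9.17, 9.75 and 9.93 in untreated KRT-19-positive nodules and 10.70, 10.95 and 11.34 after 4 d of T3. All arrays at 4 d lay above every untreated array. The difference was 1.29 ± 0.13 (SE), a fold of 2.44, with a limma adjusted p of 2.6e-12. At 2 d the levels were 9.17, 9.59 and 10.54, and the difference of -0.02 ± 0.13 (SE) was not called (limma adjusted p = 0.922).

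Mrpl47, whose protein sits near the exit of the peptide tunnel, behaved alike. Its lowest, median and highest levels were 9.14, 9.46 and 9.77 untreated, 9.28, 9.44 and 9.56 at 2 d and 10.31, 10.55 and 10.77 at 4 d. The 4 d arrays did not overlap with either of the other groups. It was 2.19-fold higher at 4 d than untreated (1.13 ± 0.08 log2, SE, limma adjusted p = 5.83e-17).

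Mrpl18, a large-subunit protein whose bacterial counterpart binds the smallest ribosomal RNA, ranged from 10.87 to 11.52 (median 11.27) untreated and from 11.84 to 12.70 (median 12.18) at 4 d, a difference of 0.96 ± 0.10 (SE, limma adjusted p = 1.62e-11) with no overlap. Mrpl44, which has the fold of a ribonuclease III and whose loss causes a cardiomyopathy in humans, had levels of 8.00, 8.32 and 8.62 untreated and 9.09, 9.22 and 9.54 at 4 d. It rose by 0.96 ± 0.10 (SE, limma adjusted p = 2.88e-11). Mrpl4, a protein of the tunnel wall, was 0.67 ± 0.07 higher (SE, limma adjusted p = 8.35e-11), and its ranges did not overlap. Smaller rises were found for Mrpl37, found only in mitochondrial ribosomes (0.50 ± 0.07, SE), and for Mrpl3, near the catalytic centre (0.32 ± 0.09, SE).

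Among small-subunit genes, Mrps2 had the largest rise. Its protein belongs to the body of the small subunit near the messenger RNA exit, and its loss causes hearing loss and hypoglycaemia in humans. Its lowest, median and highest levels were 6.19, 6.83 and 7.11 untreated, 6.94, 7.41 and 8.10 at 2 d and 7.48, 7.75 and 8.04 at 4 d. The untreated and 4 d arrays were separate. The 2 d median lay between their medians, and the 2 d range overlapped both. The 4 d difference was 1.02 ± 0.17 (SE), a fold of 2.03 (limma adjusted p = 7.56e-07). Mrps14, a small-subunit protein with a bacterial counterpart, ranged from 8.06 to 8.65 untreated and from 8.87 to 9.70 at 4 d without overlap (0.92 ± 0.10, SE, limma adjusted p = 1.01e-11). Mrps5 rose by 0.52 ± 0.09 (SE). Mrps30, named for the small subunit but part of the large one by structure, rose by 0.50 ± 0.08 (SE). The other genes called higher at 4 d rose by 0.18 (Mrpl43) to 0.75 (Mrpl42).

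Of the 8 genes called lower at 4 d, Mrps26 fell most. It encodes a small-subunit protein that occurs only in mitochondrial ribosomes. Its lowest, median and highest levels were 8.17, 8.33 and 8.54 untreated and 7.03, 7.42 and 8.02 at 4 d, which did not overlap, and the difference was -0.93 ± 0.12 (SE, limma adjusted p = 2.16e-09). Mrpl1, a protein of the mobile stalk beside the tRNA exit, had levels of 9.24, 9.57 and 9.85 untreated and 8.79, 8.93 and 9.24 at 4 d, with the ranges just separate (-0.62 ± 0.09, SE, limma adjusted p = 1.58e-07). Mrpl17 and Mrpl23, both at the tunnel exit, differed by -0.74 ± 0.22 (SE, limma adjusted p = 0.00311) and -0.54 ± 0.12 (SE, limma adjusted p = 8.86e-05), with overlapping ranges. Mrps7, a head protein that binds ribosomal RNA, differed by -0.41 ± 0.09 (SE, limma adjusted p = 0.000236). Mrps24 differed by -0.26. Mrpl55 (-0.21) and Mrpl52 (-0.26), both found only in mitochondrial ribosomes, lost their call without arrays 1 and 3 at 4 d (limma adjusted p = 0.0761 and 0.0639).

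The 17 genes with no call at 4 d included Mrps12, Mrps18a and Mrps34, with differences of 0.01, 0.01 and 0.05, and Mrpl45, which anchors the ribosome to the inner membrane, at -0.16. Of the Mrps18 paralogs, Mrps18b differed by 0.11 and Mrps18c by -0.17, neither called. Mrpl41 differed by -0.28 and Mrps27 by 0.12. Proteins with a bacterial counterpart had 21 of 34 genes higher and 5 lower (median 0.27), and those found only in mitochondrial ribosomes had 11 of 23 higher and 3 lower (median 0.18). This grouping was not tested.

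Cell type markers moved in the same comparison. Of 4 tested markers of cholangiocytes and progenitors, 0 were higher and 3 lower, with a median summed intensity of 5436 (3955 to 10190) untreated and 722.9 (557.8 to 1052) at 4 d. Macrophage markers had 1 of 7 higher and 4 lower (median sum 11210 untreated, 5584 at 4 d), and markers of stellate cells and fibroblasts had 1 of 5 higher and 4 lower (6881 and 2467). Markers of proliferating cells had 4 of 5 higher and 0 lower (562.4 and 1353), and hepatocyte markers 2 of 6 higher and 0 lower (98180 and 99420). Lymphocyte markers had 0 of 5 higher and 3 lower, and endothelial markers 1 of 2 higher and 0 lower. Their part in the differences of the mitochondrial ribosomal protein genes was not tested. In bulk tissue, fewer cells of a type and less RNA per cell cannot be told apart.

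To show the sequences around the start sites of the genes with the largest differences at 4 d, promoters were taken from the RefSeq annotation of the rat genome build GRCr8, from 250 bases before to 50 bases after the first listed start. Of the 59 genes, 48 had an entry. Mrpl13, Mrpl15, Mrpl16, Mrpl19, Mrpl21, Mrpl35, Mrpl43, Mrps12, Mrps24, Mrps34 and Mrps35 did not. Motifs searched on both strands were the NRF1 site GCATGCGC, the ETS site CCGGAAGT (bound by GABPA, among others), the YY1 site AAGATGGC, the E-box CACGTG and the nuclear receptor half-site AGGTCA, which thyroid hormone receptors can bind. These factors are background knowledge, not results of these data.

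The genes that were highest at 4 d and have an entry were Mrpl47 (chr2:117447312-117447611, minus strand), Mrps2 (chr3:32200827-32201126, plus), Mrpl18 (chr1:50384702-50385001, plus) and Mrpl44 (chr9:88554800-88555099, plus), and those that were lowest were Mrps26 (chr3:138222074-138222373, plus) and Mrpl17 (chr1:169575650-169575949, minus). Each is written 5′ to 3′ on the strand of the gene, in lower case with the motif letters in capitals.
Mrpl47: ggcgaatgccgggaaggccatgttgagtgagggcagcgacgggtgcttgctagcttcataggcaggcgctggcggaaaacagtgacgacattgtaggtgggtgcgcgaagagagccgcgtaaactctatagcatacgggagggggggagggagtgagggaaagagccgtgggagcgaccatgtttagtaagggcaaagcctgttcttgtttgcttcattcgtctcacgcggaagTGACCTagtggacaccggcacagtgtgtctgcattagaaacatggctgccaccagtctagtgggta
Mrps2: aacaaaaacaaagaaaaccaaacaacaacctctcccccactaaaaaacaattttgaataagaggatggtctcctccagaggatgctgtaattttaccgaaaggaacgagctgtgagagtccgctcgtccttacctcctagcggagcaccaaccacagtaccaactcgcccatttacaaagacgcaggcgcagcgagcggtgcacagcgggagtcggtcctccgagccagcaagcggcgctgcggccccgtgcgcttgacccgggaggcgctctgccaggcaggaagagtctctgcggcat
Mrpl18: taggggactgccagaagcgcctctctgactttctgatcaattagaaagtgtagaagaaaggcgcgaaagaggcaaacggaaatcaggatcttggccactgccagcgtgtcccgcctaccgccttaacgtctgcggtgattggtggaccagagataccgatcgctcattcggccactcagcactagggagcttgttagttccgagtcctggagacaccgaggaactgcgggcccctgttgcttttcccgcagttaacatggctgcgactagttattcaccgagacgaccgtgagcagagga
Mrpl44: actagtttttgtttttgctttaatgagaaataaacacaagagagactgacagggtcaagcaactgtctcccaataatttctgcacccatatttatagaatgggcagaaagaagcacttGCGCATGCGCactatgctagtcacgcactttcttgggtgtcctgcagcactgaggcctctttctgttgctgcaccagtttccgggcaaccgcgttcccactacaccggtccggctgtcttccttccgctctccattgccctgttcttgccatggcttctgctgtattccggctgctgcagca
Mrps26: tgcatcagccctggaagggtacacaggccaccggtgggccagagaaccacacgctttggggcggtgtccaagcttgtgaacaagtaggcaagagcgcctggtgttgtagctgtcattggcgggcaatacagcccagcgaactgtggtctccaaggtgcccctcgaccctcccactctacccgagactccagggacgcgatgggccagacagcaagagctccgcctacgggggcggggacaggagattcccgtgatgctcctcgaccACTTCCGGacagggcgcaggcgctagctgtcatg
Mrpl17: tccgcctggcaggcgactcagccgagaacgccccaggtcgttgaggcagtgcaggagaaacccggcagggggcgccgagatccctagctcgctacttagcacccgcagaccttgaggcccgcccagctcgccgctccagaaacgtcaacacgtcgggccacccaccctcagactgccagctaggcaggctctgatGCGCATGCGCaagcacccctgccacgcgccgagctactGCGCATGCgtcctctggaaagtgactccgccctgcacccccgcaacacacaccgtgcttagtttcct
A further pair was picked for its YY1 letters after values were seen, Mrpl42 (chr7:32028473-32028772, minus) and Mrps10 (chr9:21122404-21122703, minus), the latter with a half-site as well.
Mrpl42: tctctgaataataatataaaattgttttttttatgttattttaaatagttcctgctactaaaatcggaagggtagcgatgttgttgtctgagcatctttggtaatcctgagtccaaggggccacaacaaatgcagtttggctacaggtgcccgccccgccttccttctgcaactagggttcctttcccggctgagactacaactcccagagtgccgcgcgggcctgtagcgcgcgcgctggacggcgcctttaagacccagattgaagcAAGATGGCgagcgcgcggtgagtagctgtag
Mrps10: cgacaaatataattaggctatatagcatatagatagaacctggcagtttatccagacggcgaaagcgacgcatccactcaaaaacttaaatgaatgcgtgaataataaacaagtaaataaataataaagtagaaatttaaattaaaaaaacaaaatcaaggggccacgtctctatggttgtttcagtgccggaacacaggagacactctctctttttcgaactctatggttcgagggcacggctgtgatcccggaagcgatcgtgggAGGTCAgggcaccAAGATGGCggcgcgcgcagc

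Mrpl44 carried an NRF1 match starting 130 bases before the start, with a second match overlapping on the other strand, and Mrpl17 carried NRF1 matches starting at -53 and -17. Mrpl47 had a half-site at -16, Mrps26 an ETS match at +17, and neither Mrps2 nor Mrpl18 held any of the 5 letter strings. Over the 48 promoters, YY1 letters were found in 14 (29.2%) against 3.44% of all 27457 promoters, ETS letters in 8 (16.7% against 4.01%), NRF1 letters in 5 (10.4% against 2.66%), E-box letters in 6 (12.5% against 6.65%) and half-sites in 10 (20.8% against 15.7%). Among the 10976 promoters of genes on the array the shares were 4.25% for YY1, 5.77% for ETS, 3.75% for NRF1, 7.81% for the E-box and 13.2% for the half-site. Split by the call at 4 d, there were 24 promoters of genes called higher, 7 of genes called lower and 15 of genes not called. YY1 letters were in 9, 1 and 4 of these, half-sites in 6, 0 and 4, NRF1 letters in 3, 1 and 1, ETS letters in 2, 2 and 4, and E-box letters in 1, 0 and 4. A match describes letters in this window and is not a binding site, and the shares were not tested.

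After 2 d of T3, the genes were split. Against untreated KRT-19-positive nodules 15 genes were called higher (15.8% of all features were) and 9 lower (15.5% of all features). The large subunit had 8 higher and 6 lower of 35 with a median of -0.02, and the small subunit 7 higher and 3 lower of 22 with a median of 0.09. The 2 d and the 4 d comparison share the same untreated arrays. In a fit of the 6034 features detected on all arrays, 14 of 52 genes were higher, beside 22.8% of these features, and 7 lower, beside 20.7%. In the fits without the arrays that stood apart, 15 were higher and 9 to 12 lower. With the count of detected probes per array as a covariate, 10 were higher (14.3% of all features were) and 7 lower (12.3% of all features).

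Among small-subunit genes, Mrps12, whose protein lines the decoding centre, had lowest, median and highest levels of 11.38, 11.89 and 11.98 untreated and 12.07, 12.35 and 12.39 at 2 d. The ranges were separate, and the difference was 0.49 ± 0.08 (SE, limma adjusted p = 6.75e-06). Mrps18a, a member of the Mrps18 family that sits in the large subunit by structure, was 0.64 ± 0.12 higher (SE, limma adjusted p = 4.03e-05). Its levels were 10.56, 10.82 and 11.50 untreated and 10.70, 11.62 and 11.83 at 2 d. Array 2 alone of the 2 d group lay below the untreated median, and without it the difference was 0.73 (limma adjusted p = 7.05e-07). Mrps2 was already 0.68 ± 0.17 higher at 2 d (SE, limma adjusted p = 0.00135). Mrps34, whose loss causes Leigh syndrome in humans, was 0.42 ± 0.11 higher (SE, limma adjusted p = 0.00336), but not called once the count of detected probes per array entered the model as a covariate (0.30, limma adjusted p = 0.0597). Mrps7 was 0.28 ± 0.09 higher (SE, limma adjusted p = 0.0202) and likewise lost its call with that covariate (0.14, limma adjusted p = 0.31).

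In the large subunit, Mrpl49 and Mrpl37, both found only in mitochondrial ribosomes, rose at 2 d by 0.48 ± 0.08 (SE, limma adjusted p = 1.6e-05) and 0.44 ± 0.07 (SE, limma adjusted p = 4.24e-06). Levels of Mrpl37 were 10.54, 10.64 and 10.85 untreated, 10.80, 11.13 and 11.41 at 2 d and 11.06, 11.16 and 11.43 at 4 d. The untreated and 2 d ranges overlapped at their ends, while the 4 d arrays were separate from the untreated ones.

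The largest fall at 2 d was that of Mrpl17 (-0.86 ± 0.22, SE, limma adjusted p = 0.00154), with levels of 6.76, 7.06 and 7.67 untreated and 5.43, 6.36 and 6.91 at 2 d. Mrpl52 fell by 0.53 ± 0.12 (SE), Mrps15, whose probe was above background on 3 of 10 arrays at 2 d, by 0.43 ± 0.14 and Mrpl23 by 0.39 ± 0.12. Mrpl41, found only in mitochondrial ribosomes, fell by 0.54 ± 0.17, and was not called with the detected-probe covariate (limma adjusted p = 0.101). Mrps27, a pentatricopeptide repeat protein that binds RNA, fell by 0.30 ± 0.09 (SE, limma adjusted p = 0.00911).

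Cell type markers moved at 2 d as well. Of 4 markers of cholangiocytes and progenitors, 0 were higher and 2 lower (Krt19 and Epcam), with a median sum of 5436 untreated and 2348 at 2 d. Macrophage markers had 1 of 7 higher and 5 lower (11210 and 7587), markers of stellate cells and fibroblasts 0 of 5 higher and 1 lower (Col1a1, 6881 and 6548), hepatocyte markers 0 of 6 higher and 1 lower (Hnf4a, 98180 and 102500) and markers of proliferating cells 5 of 5 higher (562.4 and 1290). Lymphocyte and endothelial markers had 0 of 5 and 0 of 2 called. Their part was not tested.

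From 2 d to 4 d of T3, 22 genes rose (22.4% of all features were higher) and 7 fell (22.1% of all features were lower). This comparison shares its arrays with each of the others on T3. Of the large subunit 13 rose and 1 fell, and of the small subunit 9 rose and 6 fell. Among the 6034 features detected on all arrays, 31.9% were higher and 30.5% lower, beside 22 and 8 of 52 genes. With the arrays that stood apart left out, 22 to 26 rose and 6 to 8 fell, the most without array 2 at 2 d (26 and 8). Over the same step, markers of cholangiocytes and progenitors had 0 of 4 higher and 3 lower (median sum 2348 at 2 d, 722.9 at 4 d), those of stellate cells and fibroblasts 1 of 5 higher and 4 lower (6548 and 2467), macrophage markers 1 of 7 higher and 4 lower (7587 and 5584), lymphocyte markers 0 of 5 higher and 2 lower, hepatocyte markers 2 of 6 higher and 1 lower, endothelial markers 1 of 2 higher and 1 lower, and markers of proliferating cells 0 of 5 higher and 1 lower, and their part was not tested. The rises were led by Mrpl35 (1.31 ± 0.13, SE, limma adjusted p = 6.1e-12), Mrpl47 (1.15 ± 0.08), Mrpl18 (1.10 ± 0.10) and Mrpl44 (0.87 ± 0.10). Array 2 at 2 d was the highest of its group in Mrpl35 and Mrpl18, and without it these differences were 1.41 and 1.17. Mrpl14, the protein at the face between the subunits that the assembly factor Malsu1 binds, rose by 0.57 ± 0.16 (SE, limma adjusted p = 0.00324).

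By symbol, genes of the small subunit made up most of the falls, and by structure they were 5 of the 7. Mrps26 fell by 0.72 ± 0.12 (SE), Mrps7 by 0.69 ± 0.09 (SE, limma adjusted p = 3.35e-08) and Mrps18a by 0.63 ± 0.12 (SE, limma adjusted p = 1.88e-05). For Mrps7 the lowest, median and highest levels were 11.01, 11.85 and 12.13 at 2 d and 10.99, 11.12 and 11.30 at 4 d, with array 2 the only 2 d array in the 4 d range. Mrps12 returned to 11.69, 11.82 and 11.92 at 4 d, all below the 2 d arrays (-0.49 ± 0.08, SE, limma adjusted p = 2.89e-06). Mrps34 fell by 0.37 ± 0.11 (SE) and Mrpl1 by 0.50 ± 0.09 (SE). A gene chosen after its values were seen, Mrpl32, whose precursor is cleaved by the m-AAA protease of the inner membrane, was lower at 2 d (-0.23 ± 0.07, SE, limma adjusted p = 0.00646) and higher at 4 d (0.21 ± 0.07, SE, limma adjusted p = 0.00733) than untreated.

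**Figure D2:**
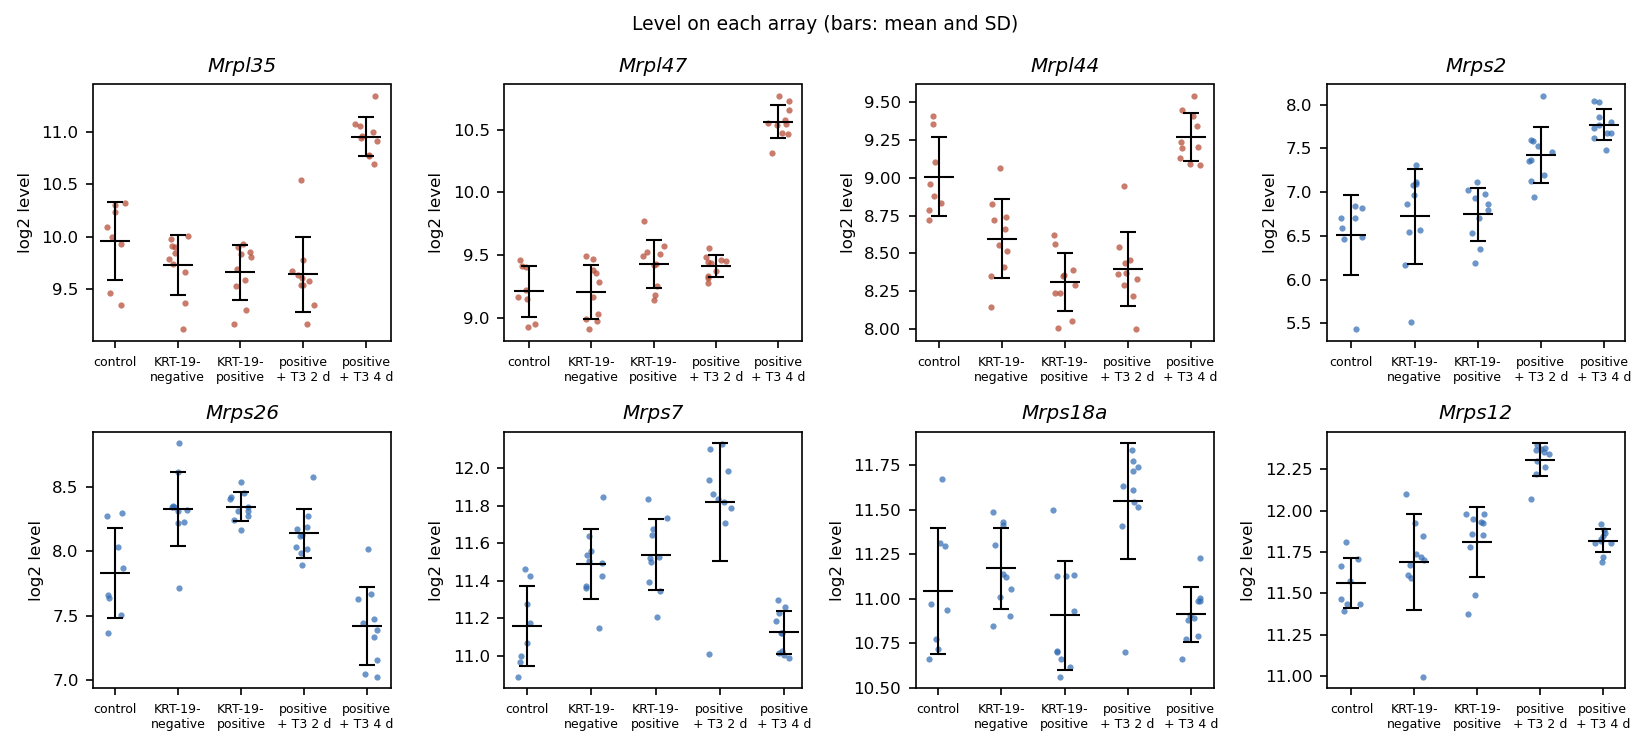
Log2 level of 8 genes on each of 48 arrays, in control liver, KRT-19-negative and -positive nodules and positive nodules after 2 d and 4 d of T3. Points are arrays and bars are the mean and SD. Mrpl35, Mrpl47 and Mrpl44 were highest at 4 d, Mrps26 lowest at 4 d, and Mrps7, Mrps18a and Mrps12 highest at 2 d.

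Before treatment, KRT-19-positive nodules had 12 genes higher than control liver (21.1%, beside 24.8% of all features). Another 12 were lower (21.1%, beside 23.9% of all features). Both shares lay below those of all features, which were split about evenly as well. Of the large subunit 5 were higher and 8 lower (median -0.10), and of the small subunit 7 were higher and 4 lower (median 0.11). With the arrays that stood apart left out, 12 to 15 were higher and 12 to 13 lower. Among the 6034 features detected on all arrays, 30.1% were higher and 34.1% lower, beside 12 and 11 of 52 genes.

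Of the genes higher than control, Mrpl36, a large-subunit protein with a bacterial counterpart, had levels of 8.51, 9.33 and 9.99 in control and 9.16, 10.07 and 10.28 in KRT-19-positive nodules (0.66 ± 0.14, SE, limma adjusted p = 0.000104). Mrps27 ranged from 7.46 to 8.12 in control and from 8.16 to 8.64 in KRT-19-positive nodules, with no overlap (0.63 ± 0.10, SE, limma adjusted p = 3.37e-07). Mrps26 was 0.52 ± 0.12 higher (SE), Mrpl13 0.47 ± 0.12, Mrpl55 0.45 ± 0.09 and Mrps7 0.38 ± 0.10. Mrpl47 was 0.22 ± 0.09 higher, and lost its call with the detected-probe covariate (limma adjusted p = 0.0961).

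Among the genes lower than control, Mrpl14 had levels of 6.10, 6.59 and 7.40 in control and 5.18, 5.65 and 6.44 in KRT-19-positive nodules (-0.94 ± 0.17, SE, limma adjusted p = 7.04e-06). Its probe was above background on 43 of 48 arrays. Mrpl44 had 8.72, 8.92 and 9.41 in control and 8.00, 8.32 and 8.62 in KRT-19-positive nodules, without overlap (-0.70 ± 0.11, SE, limma adjusted p = 4.13e-07). Mrps14 differed by -0.49 ± 0.10 (SE), Mrpl51 by -0.46 ± 0.15, and Mrpl15 by -0.46 ± 0.10. Mrps5, which differed by -0.33 ± 0.10, lost its call with the detected-probe covariate (-0.10, limma adjusted p = 0.456). Detected probes were more numerous in the KRT-19-positive arrays (median 10493) than in control (9218), and their part was not tested beyond that covariate. Cell type markers differed too. Those of cholangiocytes and progenitors had 3 of 4 higher and 0 lower (median sum 399.3 in control, 5436 in KRT-19-positive nodules). Markers of stellate cells and fibroblasts had 4 of 5 higher and 1 lower (1722 and 6881), and those of proliferating cells 4 of 5 higher and 0 lower. Macrophage markers had 3 of 7 higher and 3 lower, and hepatocyte markers 1 of 6 higher and 2 lower. Lymphocyte markers had 2 of 5 higher and 1 lower, and endothelial markers 0 of 2 called. Their part was not tested.

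In KRT-19-negative nodules 8 genes were higher than control (11.2% of all features were) and 2 lower (10.7% of all features). By symbol the small subunit held 6 of the 8. By structure, which puts Mrps30 in the large subunit, 5 of 20 small-subunit and 3 of 37 large-subunit genes were higher. In the 4 fits with arrays left out, 8 to 9 were higher and 2 lower. Among the 6034 features detected on all arrays, 16.7% were higher and 16.5% lower, beside 8 and 2 of 52 genes. Markers of cholangiocytes and progenitors had 2 of 4 higher and 0 lower here (median sum 399.3 in control, 1171 in the nodules), those of stellate cells and fibroblasts 3 of 5 higher and 0 lower (1722 and 3330) and macrophage markers 0 of 7 higher and 4 lower (8910 and 7538), and their part was not tested. Mrpl36 was 0.73 ± 0.14 higher (SE, limma adjusted p = 9.35e-05), Mrps26 0.50 ± 0.12, Mrps27 0.39 ± 0.10 and Mrps18b 0.39 ± 0.08. Mrps34 (0.34 ± 0.12) lost its call without KRT-19-negative array 4 and KRT-19-positive array 7 (limma adjusted p = 0.0531), and Mrpl55 (0.34 ± 0.09) in a fit of these 2 groups alone (limma adjusted p = 0.0678). Mrpl44 and Mrps14 were below control, with differences of -0.41 ± 0.11 (SE, limma adjusted p = 0.0044) and -0.35 ± 0.10 (SE, limma adjusted p = 0.0076).

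Between the nodule types, whose cholangiocyte and progenitor marker sums had medians of 1171 and 5436, 4 genes were higher in KRT-19-positive nodules (17.3% of all features were) and 11 lower (14.7% of all features). Mrpl13 differed most upward, by 0.57 ± 0.11 (SE, limma adjusted p = 4.68e-05), with levels of 9.77, 10.29 and 10.65 in KRT-19-negative and 10.60, 10.86 and 11.40 in KRT-19-positive nodules. Mrps33 was higher by 0.19 ± 0.06, Mrps27 by 0.24 ± 0.09 and Mrpl47 by 0.22 ± 0.08. The last pair lost its call without KRT-19-negative array 4 and KRT-19-positive array 7 (limma adjusted p = 0.083 and 0.0576), and Mrpl47 also without KRT-19-negative arrays 3 and 9 (0.123). Mrpl14 (-0.77 ± 0.16, SE, limma adjusted p = 0.00014), Mrps5 (-0.54 ± 0.09, SE, limma adjusted p = 6.36e-06), Mrpl51 (-0.43 ± 0.14) and Mrps34 (-0.41 ± 0.11) were lower in KRT-19-positive nodules. Mrpl34 (-0.37 ± 0.10) and Mrps25 (-0.34 ± 0.09) were lower as well. With the detected-probe covariate, Mrps33, Mrps34 and Mrpl47 were not called (limma adjusted p = 0.122, 0.114 and 0.0861). Mrpl15 and Mrpl44, also called lower here, lost their call with it too (limma adjusted p = 0.0803 and 0.0501). With the covariate 9 genes were called in all. Among the 6034 features detected on all arrays, 22.4% were higher and 25.7% lower, beside 5 and 12 of 52 genes. With the arrays that stood apart left out, 2 to 5 were higher and 11 to 14 lower, and the 2 and the 14 came from the fit without KRT-19-negative array 4 and KRT-19-positive array 7. Markers of stellate cells and fibroblasts had 4 of 5 higher and 0 lower, and macrophage markers 5 of 7 higher and 1 lower, in the positive type. Hepatocyte markers had 0 of 6 higher and 2 lower (Ttr and Tat). Markers of proliferating cells had 3 of 5 higher and 0 lower, lymphocyte markers 2 of 5 higher and 0 lower, and endothelial markers 0 of 2 called. Their part was not tested.

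Compared with control liver, nodules after 4 d of T3 had 27 genes higher (21.7% of all features were) and 7 lower (20.3% of all features). The large subunit had 16 higher and 5 lower of 35, and the small subunit 11 higher and 2 lower of 22, with a median of 0.22 in each. Over the 4 fits with arrays left out, 28 to 29 were higher and 7 to 9 lower. Among the 6034 features detected on all arrays, 28.4% were higher and 29.1% lower, beside 27 and 6 of 52 genes. Markers of proliferating cells had 5 of 5 higher (median sum 263.2 in control, 1353 at 4 d), macrophage markers 0 of 7 higher and 5 lower (8910 and 5584), and those of cholangiocytes and progenitors 2 of 4 higher and 0 lower (399.3 and 722.9), and their part was not tested. Mrpl47 had levels of 8.93, 9.20 and 9.46 in control against 10.31, 10.55 and 10.77 at 4 d (1.35 ± 0.09, SE, 2.55-fold, limma adjusted p = 2.16e-18). Mrps2 differed by 1.26 ± 0.18, Mrpl13 by 1.06 ± 0.12, Mrpl35 by 0.99 ± 0.14 and Mrpl18 by 0.94 ± 0.11, each without overlap. Mrps30 was 0.82 ± 0.08 and Mrps27 0.75 ± 0.10 higher.

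Mrps10, a head protein, was above background on 0 of 8 control arrays and on 8 of 10 arrays at 4 d, and was at least 1.20-fold higher at 4 d, a bound taken against the lowest detected signal of each array (limma adjusted p = 6.29e-06). Mrpl23 (-0.61 ± 0.12, SE), Mrpl1 (-0.55 ± 0.10), Mrpl51 (-0.46 ± 0.15), Mrpl27 (-0.43 ± 0.09) and Mrps26 (-0.41 ± 0.12) were lower than control. Mrpl14 differed by -0.47 ± 0.17, a call lost with the detected-probe covariate (limma adjusted p = 0.0722). Mrpl44 was 0.26 ± 0.11 higher than control at 4 d, with a limma adjusted p of 0.0491 close to the threshold, and was not called with that covariate (limma adjusted p = 0.0831).

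**Figure D3:**
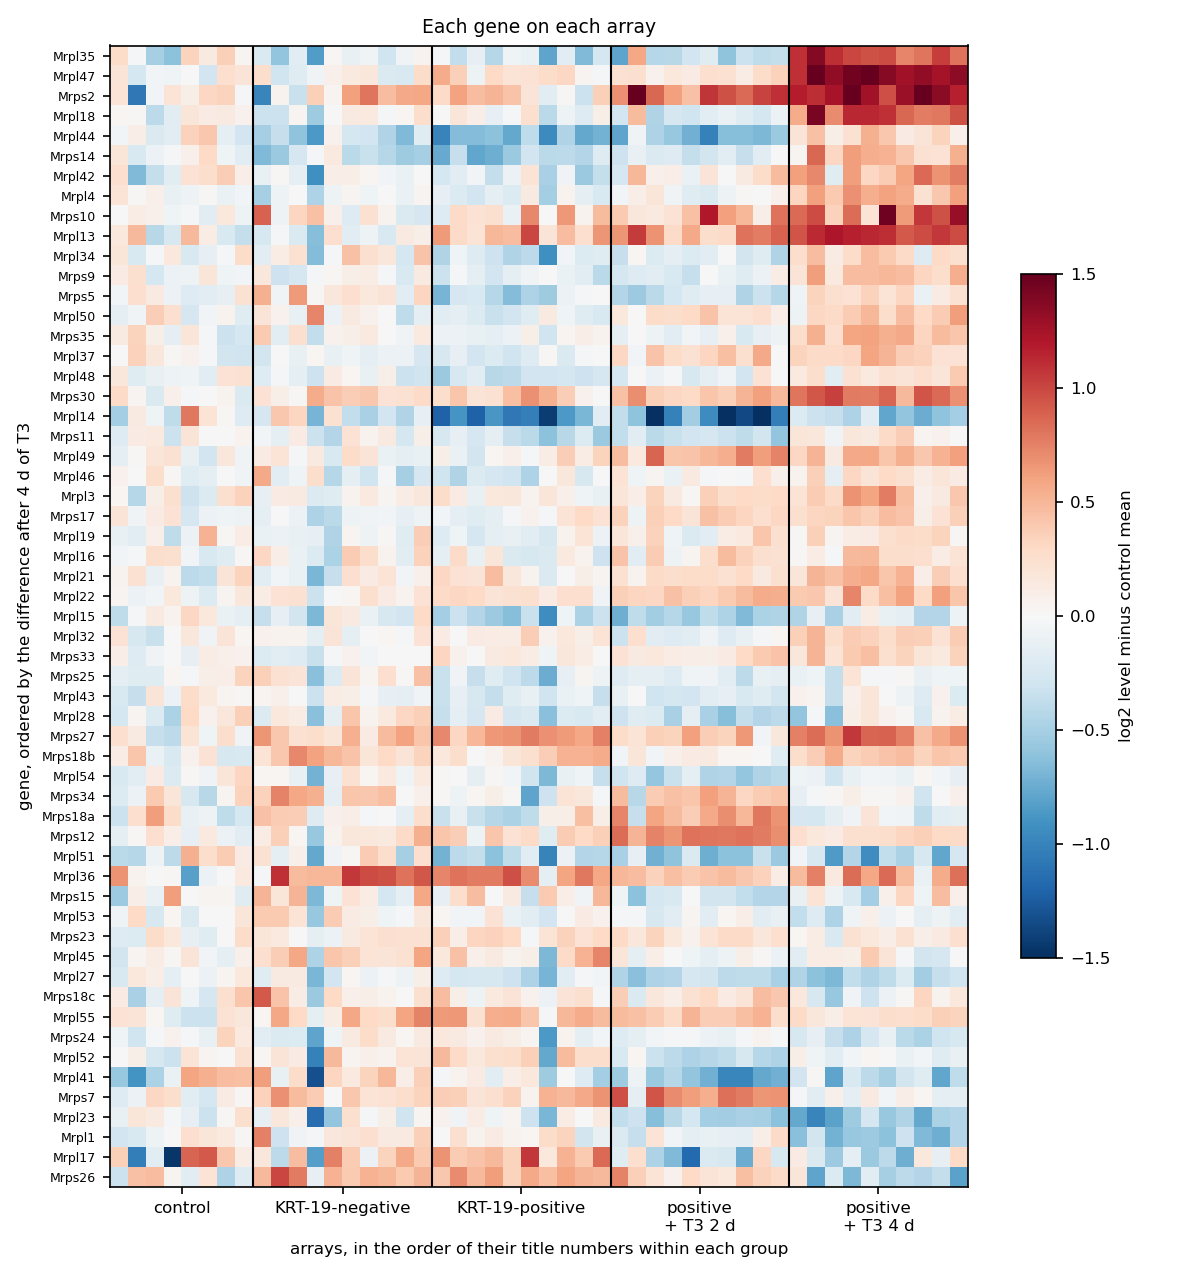
Log2 level of each of the 57 genes on each of 48 arrays, minus the mean of the control arrays, with arrays in columns by group and genes in rows by the difference after 4 d of T3. Red is higher and blue lower than control, and colours are capped at 1.5 in either direction. The top rows are red in the 4 d columns, and KRT-19-negative array 4 and KRT-19-positive array 7 stand out as blue columns.

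**Figure D4:**
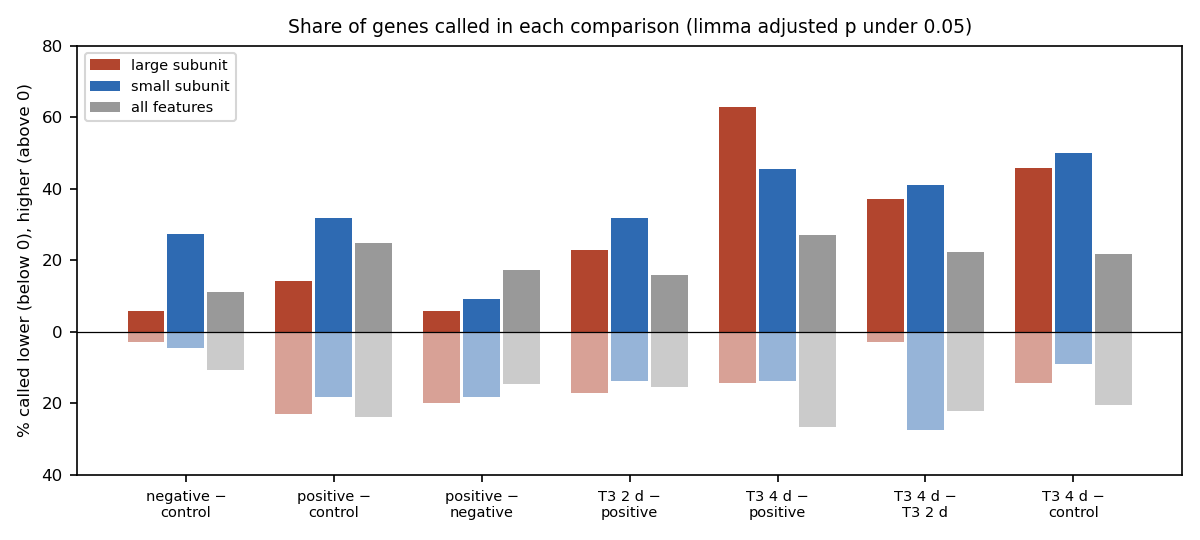
Share of the 35 large-subunit genes, the 22 small-subunit genes and all 11558 features called higher (upward bars) or lower (downward bars, paler) in each of 7 comparisons. After 4 d of T3 against untreated positive nodules 62.9% of the large and 45.5% of the small subunit were higher beside 27.1% of all features.

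Averaged over their genes, both subunits were highest at 4 d of T3. Relative to the mean of the control arrays, the large-subunit mean was 0.00 ± 0.08 (SD, n = 8) in control, 0.00 ± 0.17 (SD, n = 10) in KRT-19-negative nodules, -0.06 ± 0.11 in untreated KRT-19-positive nodules, -0.08 ± 0.05 at 2 d and 0.18 ± 0.09 at 4 d. The small-subunit mean was 0.00 ± 0.04, 0.13 ± 0.10, 0.07 ± 0.07, 0.18 ± 0.06 and 0.26 ± 0.05 in the same order. The mean of the large minus that of the small subunit was -0.26 ± 0.10 at 2 d, against -0.14 ± 0.07 untreated and -0.08 ± 0.05 at 4 d. Without KRT-19-negative array 4 the large-subunit mean of that group was 0.05 ± 0.07 (SD, n = 9), and without KRT-19-positive array 7 that of untreated positive nodules was -0.03 ± 0.04 (SD, n = 9). Without array 2 at 2 d the large minus the small subunit was -0.29 ± 0.04 (SD, n = 9). No p is given for these means, because the genes were chosen as a list. By structure Mrps30 and Mrps18a count with the large subunit, and at 4 d against untreated this gave 23 higher and 5 lower of 37 and 9 higher and 3 lower of 20. At 2 d against untreated it gave 9 higher and 6 lower of 37 (median -0.01). The small subunit then had 6 higher and 3 lower of 20 (median 0.05). The means above keep both genes in the small subunit. Mean levels of Mrps18a and Mrps30 were 11.04 and 10.30 in control, 10.91 and 10.62 untreated and 11.55 and 10.75 at 2 d. The means were not recomputed by structure.

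**Figure D5:**
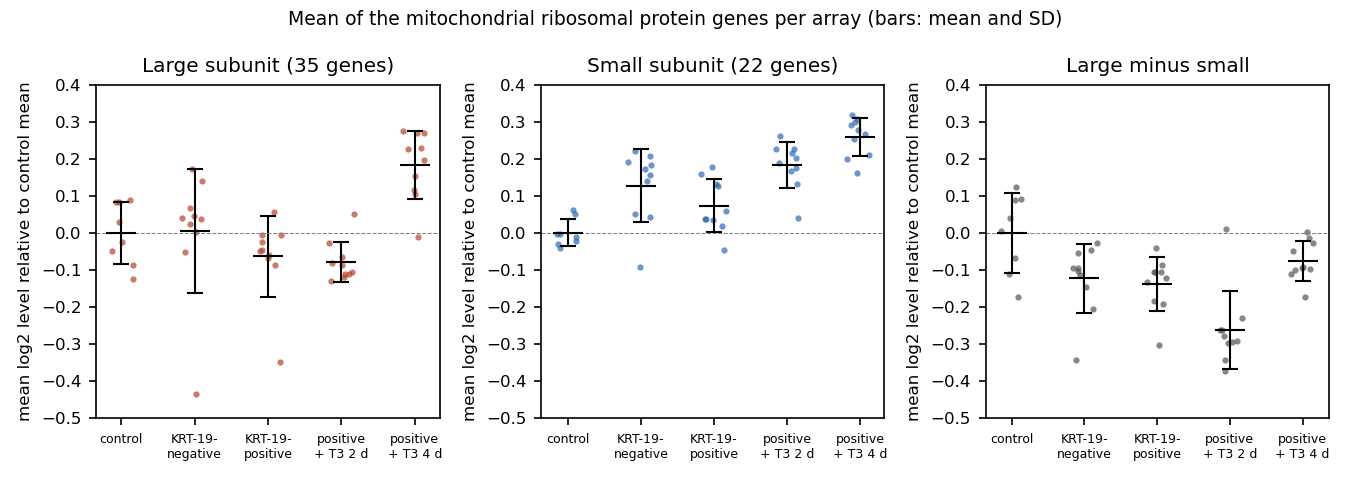
Mean log2 level of the large-subunit genes, of the small-subunit genes and their difference on each array, relative to the mean of the control arrays, with the mean and SD of each group as bars. The large-subunit means were lowest in KRT-19-negative array 4 (-0.44) and KRT-19-positive array 7 (-0.35), and the difference was lowest at 2 d of T3.

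Other genes of mitochondrial translation were read from lists, whose counts at 4 d against untreated stand beside 27.1% of all features higher and 26.6% lower. Of 8 tested translation factors, 5 rose and 0 fell after 4 d of T3 against untreated nodules. Guf1, a GTPase of mitochondrial translation, rose by 0.86 ± 0.11 (SE, limma adjusted p = 8.28e-09), the elongation factor Gfm1 by 0.60 ± 0.09, the release factor Mtrf1l by 0.53 ± 0.10 and the recycling factor Mrrf by 0.51 ± 0.12, whereas the elongation factor Tufm differed by -0.05 ± 0.07 and was not called. Of 10 tested aminoacyl-tRNA synthetases and amidotransferase subunits, which charge mitochondrial tRNAs, 3 rose and 0 fell: Cars2 by 0.98 ± 0.14, Gatc by 0.94 ± 0.10 and Yars2 by 0.27 ± 0.08 (SE). Cars2 had been -1.30 ± 0.15 below control in untreated KRT-19-positive nodules (SE, limma adjusted p = 2e-10).

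Mitochondrial ribosomal proteins under other symbols had 1 of 5 genes higher and 1 lower at 4 d. Chchd1 rose by 0.34 ± 0.08 (SE). Dap3, a small-subunit protein that binds GTP, was 0.40 ± 0.10 lower than untreated at 4 d (SE, limma adjusted p = 0.000977). At 2 d it was 0.41 ± 0.10 higher than untreated (SE, limma adjusted p = 0.00155). Assembly and ribosomal RNA modification factors had 8 of 20 higher and 1 lower. Mterf3, a regulator of ribosome assembly, rose by 1.06 ± 0.14 (SE, limma adjusted p = 1.22e-08), Rbfa, a maturation factor of the small subunit, by 0.82 ± 0.17, the ribosomal RNA methyltransferase Tfb1m by 0.58 ± 0.20 and Fastkd2 by 0.50 ± 0.09, while Mterf4 fell by 0.53 ± 0.11.

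Transcription and RNA processing of the mitochondrial genome had 5 of 12 genes higher and 0 lower at 4 d. The polyadenylating enzyme Mtpap rose by 0.87 ± 0.10 (SE, limma adjusted p = 6.02e-10), the initiation factor Tfb2m by 0.69 ± 0.09, the RNA polymerase Polrmt by 0.65 ± 0.09 and Trmt10c, which processes tRNAs, by 0.66 ± 0.21. Tfam, which packages mitochondrial DNA, differed by 0.05 ± 0.08 and was not called. Of 6 regulators of mitochondrial biogenesis, 3 rose and 1 fell: the coactivator Ppargc1a rose by 1.20 ± 0.12 (SE, limma adjusted p = 2.26e-12), Yy1 by 0.84 ± 0.19 and Gabpa by 0.48 ± 0.16. Myc fell by 1.24 ± 0.24, and in untreated KRT-19-positive nodules it had been 3.12 ± 0.26 above control (SE, limma adjusted p = 1.52e-14).

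Over the 7 comparisons, 53 of the 57 genes (93.0%) were called in at least 1, beside 79.8% of all features, and 4 in none (Mrpl28, Mrpl45, Mrpl53 and Mrps18c). Mrpl44, Mrps14 and Mrps27 were called in 6 comparisons each, the most of any.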

How the data were processed

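The 48 rat liver samples were hybridised to 1-colour Illumina bead arrays. The main deposited table gives, per the file headers, a linear intensity that was not normalised and a detection p-value for each probe and array. A second deposited table holds intensities that the authors had quantile normalised, as read from its values, and served as an alternative. BeadStudio 3.0.19.0 is named in the submitters' processing notes, and the genome build is not given in the sources used here. Of 22523 probes, 13793 carried 1 symbol and 8730 none, and the symbols of all 59 genes equal the current RefSeq symbol.

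Intensities were corrected for background with normexp, using the detection p-values, given an offset of 16, quantile normalised and log2 transformed (neqc of limma 3.58.1, R 4.3.3). Features with a detection p under 0.05 on at least 8 arrays were kept, with 1 probe per gene, that of the highest raw mean, which left 11558. A linear model with 1 coefficient for each of 5 groups was fitted to all arrays, and 7 contrasts were tested with moderated variances that follow the mean. Each contrast had its p-values adjusted over all its features (Benjamini-Hochberg), and calls were made at an adjusted p under 0.05. The procedure was tested on simulated data. The number of arrays limits the precision.

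Genes named are, per comparison, up to 6 called genes with the largest rise and 6 with the largest fall, a set of examples of roles (of which Mrpl10, Mrpl11, Mrpl12, Mrps16, Mrps22 and Mrps36 had no probe under these symbols), and called genes of the other lists, up to 4 per list and comparison. The genes, lists, markers, motifs and comparisons were chosen with earlier results of these data known, so that patterns shown before are no independent support. Promoters come from RefSeq (GRCr8), first start listed per gene. Samples with the same title number were not more alike than others (median correlation of deviations -0.03 over 92 pairs, against 0.00 over 828 other pairs). The main fit therefore did not pair samples by number. Such a check cannot exclude that some samples with the same number share an animal. Alternatives were another normalisation, no background correction, an offset of 50, other filters, another probe rule, fits of 2 groups, blocks by title number, a detected-probe covariate, array weights and left-out arrays, the last chosen after seeing the data.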

Additional observations from a re-analysis of the deposited data

Results flagged for a closer look

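The genes examined were the mitochondrial ribosomal protein genes picked by size of change or as examples of roles, not all genes named above. In each group the highest and the lowest array of each of these genes, and of the mean of each subunit, were set against the others of the group. In 24 of 200 groups examined an array lay further from its neighbours than Dixon's 95% limit allows. For independent groups chance would give about 1 in 20, or 10. The groups were not independent, since the same arrays recur for every gene and the subunit means repeat the genes. The 24 therefore cannot be weighed against the 10.

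KRT-19-negative array 4 was far below the others in Mrpl27 (log2 level 10.77), Mrpl41 (7.558), Mrpl45 (9.048), Mrpl52 (10.69), Mrps12 (11) and the mean of the large subunit (-0.4355 relative to control). KRT-19-positive array 7 was low in Mrpl34 (9.255), Mrpl36 (9.165), Mrpl45 (8.845), Mrpl52 (10.92) and the mean of the large subunit (-0.3494), and KRT-19-positive array 6 in Mrps34 (9.118).

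At 2 d of T3, array 2 was high in Mrpl18 (11.75), Mrpl35 (10.54) and Mrpl52 (11.72) and low in Mrps12 (12.07), Mrps18a (10.7), Mrps34 (9.492) and Mrps7 (11.01). In each of these 7 genes it lay on the side of the 4 d arrays, whose medians were 12.18, 10.95, 11.64, 11.82, 10.90, 9.92 and 11.12 in the same order. Also at 2 d, array 10 was low in Mrpl36 (9.431) and array 8 in Mrps25 (9.169). At 4 d, array 8 was low in Mrpl34 (9.984) and Mrps34 (9.609), and in control liver array 2 was low in Mrps2 (5.43).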

How the results depend on the processing

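Of 127 pairs of a comparison and a mitochondrial ribosomal protein gene picked by size of change or role, 0 reversed under the 15 alternatives run for them. Of these alternatives, the filter for probes detected on all arrays gave a value for 113 pairs. Between 28 and 34 genes were higher and between 6 and 11 lower after 4 d of T3 against untreated KRT-19-positive nodules (32 and 8 as reported), and the total called at 2 d ranged from 17 to 29 (24 as reported). Between the nodule types, 9 genes were called once the count of detected probes per array entered the model, against 15, and the cause was not tested. The median of the large minus that of the small subunit between 4 d and 2 d was -0.04. It became 0.05 in the deposited normalised table (0.0499) and without background correction (0.05), 0.0617 without a filter and 0.0673 for probes detected on all arrays. This difference of medians therefore has no settled sign. The mean of the large minus that of the small subunit per array is another measure, at -0.26 ± 0.10 (SD) at 2 d and -0.08 ± 0.05 at 4 d. With the title number as a replicate block, 10, 24, 15, 23, 40, 30 and 34 genes were called in the 7 comparisons, against 10, 24, 15, 24, 40, 29 and 34. Of the 127 pairs, 26 lost their call under at least 1 alternative, 23 of them with the detected-probe covariate. At 4 d against untreated, Mrpl15 (limma adjusted p = 0.0499), Mrpl52 (0.05) and Mrpl55 (0.0403) lay near the threshold and lost it under several. Probes not above background on every array (Mrpl14, Mrpl17, Mrps2, Mrps10 and Mrps15) are limited by their signal.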

Other observations

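In untreated KRT-19-positive nodules against control liver, 24.8% of all features were higher and 23.9% lower, and the counts of the lists around the mitochondrial ribosome stand beside these shares (differences are log2, nodules minus control). Of 10 synthetases and amidotransferase subunits 3 were higher and 2 lower, with Yars2 (tyrosine) at 0.78 ± 0.08 (SE, limma adjusted p = 2.44e-11), Lars2 (leucine) at 0.62 ± 0.17 and Gatc at -0.48 ± 0.11. Of 20 assembly and ribosomal RNA modification factors 2 were higher and 5 lower. Fastkd2, an RNA-binding protein of mitochondrial RNA granules, was at 0.54 ± 0.10 (limma adjusted p = 1.09e-05), and the pseudouridine synthase Rpusd3, Rbfa and the methyltransferase Nsun4 were at -0.83 ± 0.16, -0.72 ± 0.18 and -0.57 ± 0.12. Of 12 transcription and RNA processing genes, 1 was higher (Elac2, which trims tRNAs, 0.46 ± 0.11) and 2 lower (Polrmt, -0.48 ± 0.10, and Hsd17b10, -0.53 ± 0.14).

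Nodules after 4 d of T3 were also set against control liver on the same scale, where 21.7% of all features were higher and 20.3% lower. Median marker sums of cholangiocytes and progenitors were 399.3 in control, 5436 in untreated nodules and 722.9 at 4 d, and their part in these differences was not tested. Of 8 translation factors 6 were higher and 1 lower, with Guf1 at 0.81 ± 0.12 (SE, limma adjusted p = 2.14e-07), Gfm1 at 0.61 ± 0.10 and the formyltransferase Mtfmt at -0.29 ± 0.10. Of 20 assembly factors 7 were higher and 3 lower, with Fastkd2 at 1.03 ± 0.10 (limma adjusted p = 2.62e-12), Mterf3 at 0.93 ± 0.15 and Rpusd3 at -0.83 ± 0.16. Of 6 regulators of mitochondrial biogenesis 5 were higher and 0 lower, among them Myc at 1.88 ± 0.26 (limma adjusted p = 4.06e-08) and Ppargc1a at 0.93 ± 0.13.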
